A study of Mus musculus with 8 samples.

Results

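The cytosolic and mitochondrial chaperones were the 79 gene symbols, of 23238 in the count tables, whose names mark them as members of the HSP90, HSP70, HSP110, small heat shock protein, HSP60, HSP10, CCT or DNAJ families. Symbols were matched by the pattern of the name, which took 80 genes, and Hspa5, the HSP70 of the endoplasmic reticulum, was then removed. Some members work in the endoplasmic reticulum (among them Dnajb9, Dnajb11, Dnajc1, Dnajc3, Dnajc10 and Dnajc25), so the set as matched is not purely cytosolic and mitochondrial. Ribosome-associated RNA of lung endothelium was sequenced from the 3′ end of polyadenylated transcripts in 8 mouse libraries of strain C57BL/6J. In 4 libraries, called hypoxic below, the mice carried Cdh5-CreERT2, floxed Sox17 (Sox17fl/fl) and the RiboTag allele RPL22tm1.1Psam, and were kept in hypoxia for 3 weeks from 10 weeks of age. In the other 4, called control, they carried Cdh5-CreERT2 and RPL22tm1.1Psam alone and stayed in room air for the same time. All mice received 2 mg of tamoxifen on 5 days at 8 weeks of age. Cdh5-CreERT2 is a tamoxifen-activated recombinase driven by the VE-cadherin promoter, and RPL22tm1.1Psam puts an HA tag on a ribosomal protein in the cells that recombine, so ribosomes of endothelium can be pulled down from whole lung. The deposited names of hypoxic libraries 2, 3 and 4 share a number, and whether these come from separate animals is not stated. The genotype and the oxygen level differ together between the groups and cannot be told apart. In such bulk samples, fewer cells of a type and less RNA per cell cannot be told apart either. The tables held 7000313 to 12913304 counts in hypoxic libraries and 10567561 to 11884614 in control libraries, with 8019 to 8708 genes detected in hypoxic and 9821 to 10429 in control libraries. Between 47 and 54 members had a count in a hypoxic library and between 54 and 57 in a control library. Sox17 itself stood at 36.6, 3.28, 0.857 and 3.67 counts-per-million of the library total (CPM) in hypoxic libraries, against 291, 234, 209.8 and 205 CPM in control libraries, so hypoxic library 1 kept the most. The labels do not say which part of Sox17 is floxed, so its 3′ tag may lie outside the deleted part.

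Chaperones bind unfolded proteins and release them folded. HSP70 takes hold of short exposed stretches in a cycle of ATP hydrolysis that J proteins (the DNAJ families) start and that HSP110 and other exchange factors reset. HSP90 acts later, on near-folded clients such as kinases and steroid receptors, and in endothelial cells it binds the nitric oxide synthase eNOS. The ring-shaped chaperonins enclose their substrates: CCT in the cytosol, with actin and tubulin as its best-known clients, and HSP60 with its HSP10 lid in mitochondria. Small heat shock proteins hold unfolded proteins without ATP. Heat shock factor 1 drives many of these genes through heat shock elements, arrays of alternating GAA and TTC units.

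Of the 8 chaperone families, HSP90 was the only one whose summed level did not overlap between the groups. The sum over Hsp90ab1 and Hsp90aa1 was 2892, 3268, 6718 and 4978 CPM in hypoxic libraries, against 1534, 2335, 1842 and 1571 CPM in control libraries. The ratio of the means was 2.45. The summed CCT subunits averaged 1327 ± 329 CPM in hypoxic libraries and 853 ± 86.0 CPM in control libraries (SD, n = 4 each). HSP60 and HSP10 summed to 117 ± 63.5 CPM in hypoxic and 48.1 ± 20.02 CPM in control libraries. The other sums differed by less than the spread between libraries: HSP70 and HSP110 (1314 ± 391 CPM in hypoxic, 1166 ± 118 CPM in control), small heat shock proteins (955 ± 419.5 CPM in hypoxic, 816 ± 157 CPM in control), DNAJA (495 ± 90.4 CPM in hypoxic, 503 ± 179.6 CPM in control), DNAJB (430.3 ± 255 CPM in hypoxic, 352 ± 84.4 CPM in control) and DNAJC (1363 ± 472 CPM in hypoxic, 1549 ± 69.4 CPM in control). Gene by gene, edgeR's quasi-likelihood test called no member at an adjusted p under 0.05, and 0 of 8282 genes in all (0.0%). At an unadjusted p under 0.05 it had 4 of 55 tested members, beside 424 genes in all (5.12%). Hsp90ab1 was the 1 member called by DESeq2, among 155 of 7974 genes (1.94%), and by limma-voom, among 44 of 8282 (0.531%). It was also the 1 member called by edgeR without its filter on low counts, among 17 of 14071 genes (0.121%).

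**Figure D1:**
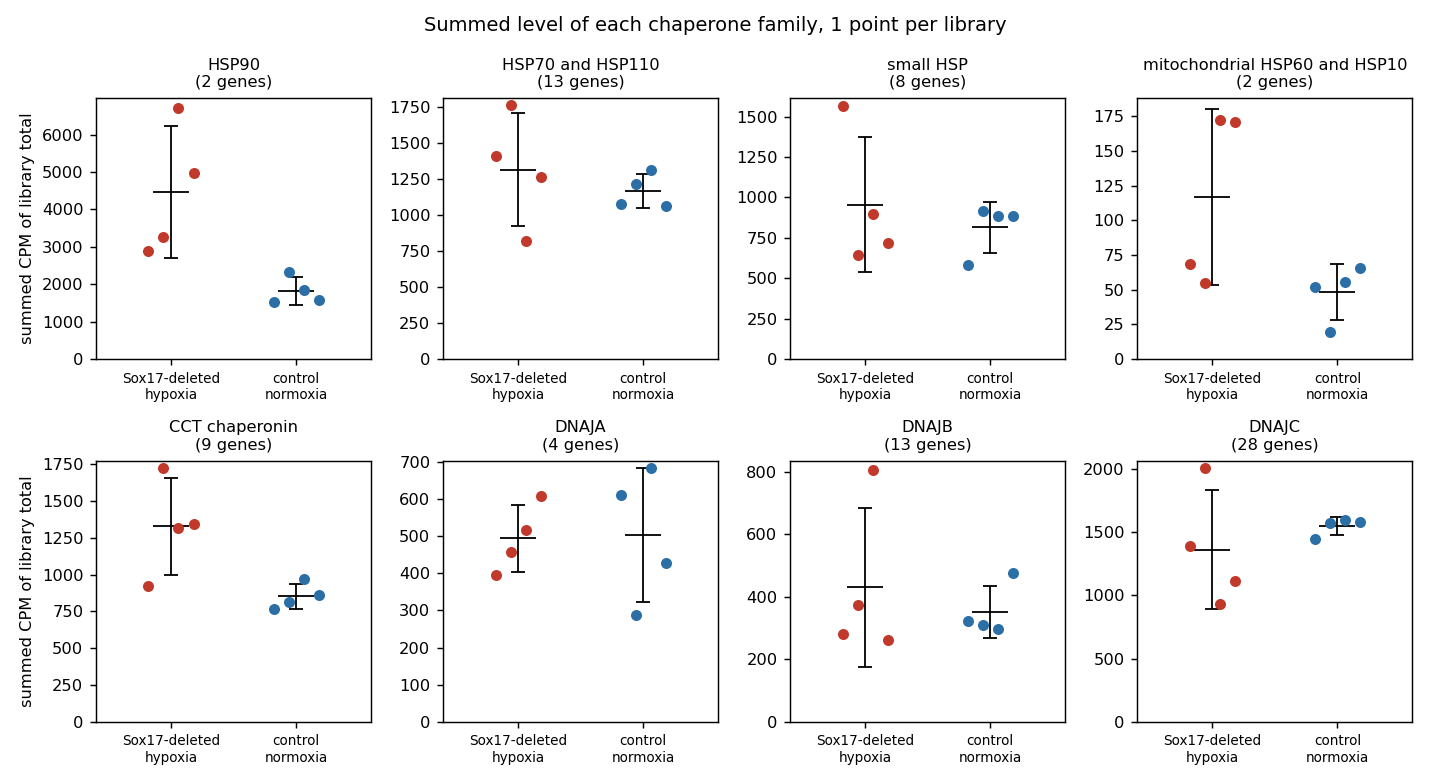
Summed CPM of every member of each chaperone family in each library, with a point per library and bars at the group mean ± SD; hypoxic libraries stand left of control libraries. The HSP90 sums of the hypoxic libraries, 2892 to 6718 CPM, lie above those of the control libraries, 1534 to 2335 CPM.

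All 79 members together took 0.892%, 1.03%, 1.22% and 1.04% of the counts in hypoxic libraries, against 0.639%, 0.747%, 0.764% and 0.693% in control libraries. Hsp90ab1 made up much of that gap, but without it the sum was still 6679 ± 515 CPM in hypoxic libraries and 5596 ± 420 CPM in control libraries, with the lowest hypoxic value, 6397 CPM, above the highest control value, 6146 CPM. The HSP90 genes took 41.7 ± 11.6% of all chaperone counts in hypoxic libraries and 25.5 ± 3.90% in control libraries, and the DNAJC genes 13.4 ± 5.25% in hypoxic and 21.9 ± 1.02% in control libraries. HSP90 took at least 31.7% in hypoxic and at most 31.3% in control libraries. Shares of one total are tied, and the DNAJC sums themselves overlapped, at 935 to 2012 CPM in hypoxic and 1446 to 1596 CPM in control libraries.

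Marker genes of lung cell types were read beside these sums. Endothelial markers were all detected and summed to 7123 to 11981 CPM in hypoxic libraries and 11166 to 11979.9 CPM in control libraries. Of these 14 genes, 4 had a higher hypoxic mean, among them the most abundant, Egfl7 (2812 ± 1418 CPM in hypoxic, 1883 ± 226 CPM in control libraries), and 3 (Erg, Eng and Tmem100) were lower in hypoxic libraries without overlap. For 3 other cell types the sums were higher in every hypoxic library than in any control library. Club cell markers (7 of 8 with a higher hypoxic mean, led by Scgb1a1) summed to 4548 to 8727 CPM in hypoxic and 2300 to 3231 CPM in control libraries. Alveolar type 2 markers (10 of 12, led by Sftpc) summed to 2072 to 4030 CPM in hypoxic and 954 to 1310 CPM in control libraries. Fibroblast markers (7 of 11) also stood apart, with 940 to 9286 CPM in hypoxic and 585 to 842 CPM in control libraries. Much of that sum was Gsn, with 469, 1384, 657 and 8208 CPM in hypoxic libraries, against 243, 284, 481 and 280 CPM in control libraries. Without Gsn the fibroblast sums overlapped between the groups, and no single fibroblast marker stood apart. No marker of these 3 lists was at 0 in all libraries. Ciliated cell markers (6 of 9 higher, led by Tppp3, with Ccdc113 at 0) summed to 401 to 1314 CPM in hypoxic and 345 to 481 CPM in control libraries, smooth muscle and pericyte markers (5 of 10, led by Myh11, with Lmod1 at 0) to 27.9 to 608 CPM in hypoxic and 60.0 to 144 CPM in control libraries, and cardiomyocyte markers (3 of 10, led by Myh6, with Nppa, Sln and Mybpc3 at 0) to 39.7 to 339 CPM in hypoxic and 13.0 to 47.7 CPM in control libraries. Alveolar type 1 markers (6 of 8, led by Clic5) summed to 1218 to 1577 CPM in hypoxic and 1242 to 1519 CPM in control libraries, leukocyte markers (5 of 12, led by S100a9, with Adgre1 and Ms4a1 at 0) to 88.1 to 412 CPM in hypoxic and 86.0 to 158 CPM in control libraries, and erythroid markers (led by Hba-a1) to 222 to 2839 CPM in hypoxic and 1325 to 2434 CPM in control libraries. Immediate early genes, which respond to handling, had a higher hypoxic mean for 5 of 15 and summed to 3047 to 4999.7 CPM in hypoxic and 4504 to 5735 CPM in control libraries, led by Klf4. The part of these other cells in the chaperone levels was not tested.

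Promoters are shown for the members whose window holds the longest heat shock element, and for Hspa1a, the classical stress-inducible gene. Windows run from 250 bases before to 50 bases after the start of transcription in RefSeq (GRCm38.p6), 5′ to 3′ along the gene's strand. They are Hspe1 (chr1:55087898-55088197, plus strand), Hsph1 (chr5:149636266-149636565, minus strand), Dnajb6 (chr5:29735648-29735947, plus strand) and Hspa1a (chr17:34972107-34972406, minus strand). Capitals mark the longest stretch of alternating units, which is 4 units for Hspe1 (2 overlapping runs of 3), 3 units for Hsph1 and Dnajb6, and 2 units for Hspa1a. Shorter runs beside a longer one stay in lower case: the Hsph1 window also holds a run of 2 units (TTCNNGAA) upstream of its start.
Hspe1: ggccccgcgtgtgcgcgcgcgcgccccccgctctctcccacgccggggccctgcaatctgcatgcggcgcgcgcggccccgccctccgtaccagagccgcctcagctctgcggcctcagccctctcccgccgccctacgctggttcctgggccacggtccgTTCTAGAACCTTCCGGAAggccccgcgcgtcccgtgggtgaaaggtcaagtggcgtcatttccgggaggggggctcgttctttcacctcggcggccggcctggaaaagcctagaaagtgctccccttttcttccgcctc
Hsph1: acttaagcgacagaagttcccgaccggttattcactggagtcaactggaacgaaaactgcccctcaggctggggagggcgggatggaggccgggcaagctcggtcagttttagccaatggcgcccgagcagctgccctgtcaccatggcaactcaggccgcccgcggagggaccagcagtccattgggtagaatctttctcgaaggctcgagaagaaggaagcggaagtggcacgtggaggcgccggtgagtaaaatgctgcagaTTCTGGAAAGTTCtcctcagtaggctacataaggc
Dnajb6: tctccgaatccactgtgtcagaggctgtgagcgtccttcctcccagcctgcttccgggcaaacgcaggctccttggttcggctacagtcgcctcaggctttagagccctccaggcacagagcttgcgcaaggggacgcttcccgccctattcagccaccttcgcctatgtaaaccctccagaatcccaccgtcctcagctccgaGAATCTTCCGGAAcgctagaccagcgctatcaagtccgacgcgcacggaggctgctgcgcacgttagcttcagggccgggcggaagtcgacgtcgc
Hspa1a: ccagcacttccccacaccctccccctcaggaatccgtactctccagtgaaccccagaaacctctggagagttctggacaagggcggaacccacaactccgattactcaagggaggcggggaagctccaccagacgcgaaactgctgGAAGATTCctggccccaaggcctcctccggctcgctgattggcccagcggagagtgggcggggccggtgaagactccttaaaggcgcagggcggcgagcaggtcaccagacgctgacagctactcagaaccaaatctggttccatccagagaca
The element in capitals starts 89 bases upstream of the Hspe1 start, 46 bases upstream of the Dnajb6 start and 104 bases upstream of the Hspa1a start, and at base 16 of the Hsph1 transcript. The table has a further start for Dnajb6, with the same element 127 bases upstream, and for Hsph1, with it at base 37. Hspd1 and Hspe1 are divergent neighbours. The window of 1 Hspd1 start shares 285 bases with that of Hspe1, so the capitals printed for Hspe1 also stand there, 144 bases upstream of that start. The window of a further Hspd1 start shares only 4 bases with it and does not hold these capitals.

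Of the 79 members, 64 matched the RefSeq promoter table by symbol, with 83 windows. Unmatched members include Hsp90ab1, Hsp90aa1, Hspa8, Hspa9 and Cct4. A run of 2 units, GAANNTTC or TTCNNGAA, was found in 20 of the 64 members (31.2%), against 17% of 27025 genes in the table. A run of 3 such units in alternation, each GAA or TTC with any 2 bases between, was found in 4 members (6.25%: Dnajb6, Hspd1, Hspe1 and Hsph1), against 0.662% of all genes, and each such run also holds a run of 2. The core of a hypoxia response element, ACGTG or GCGTG, was found in 44 members (68.8%), against 46.7% of all genes. Every motif was searched on both strands. A match is a run of letters in the window and not a measured binding site, and no match says only that the letters are not in that window.

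Hsp90ab1 (ENSMUSG00000023944.14, chr17:45567775-45573271, minus strand in GENCODE M21 on GRCm38) encodes the constitutive cytosolic HSP90, and was the most abundant member in every library. Its level was 2527, 2856, 5741 and 4021 CPM in hypoxic libraries, against 1264, 1948, 1491 and 1345 CPM in control libraries. Every hypoxic library lay above every control library, and hypoxic library 3 was the highest. The log2 fold change, hypoxic over control, was 1.37 (SE 0.35, 95% interval 0.69 to 2.05), with an adjusted p of 0.346 in edgeR's quasi-likelihood test over all 8282 genes that passed its filter. Over the 17 alternatives its adjusted p ranged from 0.00102 to 0.788, and it fell under 0.05 in 3 of them: DESeq2 (log2 fold change 1.48), limma-voom (1.20) and edgeR without the filter on low counts (1.38). DESeq2 called 155 of 7974 genes (1.94%), 33 higher (0.414%) and 122 lower (1.53%). limma-voom called 44 of 8282 (0.531%), 9 higher (0.109%) and 35 lower (0.423%), and edgeR without the filter 17 of 14071 (0.121%), 10 higher (0.0711%) and 7 lower (0.0497%). Hsp90ab1 was the 1 member among them each time.

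Hsp90aa1 (chr12:110690605-110702728, minus strand) encodes the stress-inducible HSP90 of the cytosol. It reached 365, 412, 977 and 957 CPM in hypoxic libraries, against 269, 388, 351 and 226 CPM in control libraries. Hypoxic libraries 3 and 4 stood far above the rest, while hypoxic library 1 lay within the control range. The log2 fold change came to 1.18 (SE 0.41, edgeR adjusted p 0.55). Hsp90ab1 supplied 85.3 ± 3.13% of the HSP90 sum in hypoxic libraries and 83.1 ± 1.97% in control libraries, so the balance between the cytosolic HSP90 genes differed by less than the spread between libraries. The last 300 bases of Hsp90aa1 match 2 pseudogenes at 95% identity or more over at least 75 bases, and reads from such copies could be split between them. No gene matched Hsp90ab1 that closely.

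**Figure D2:**
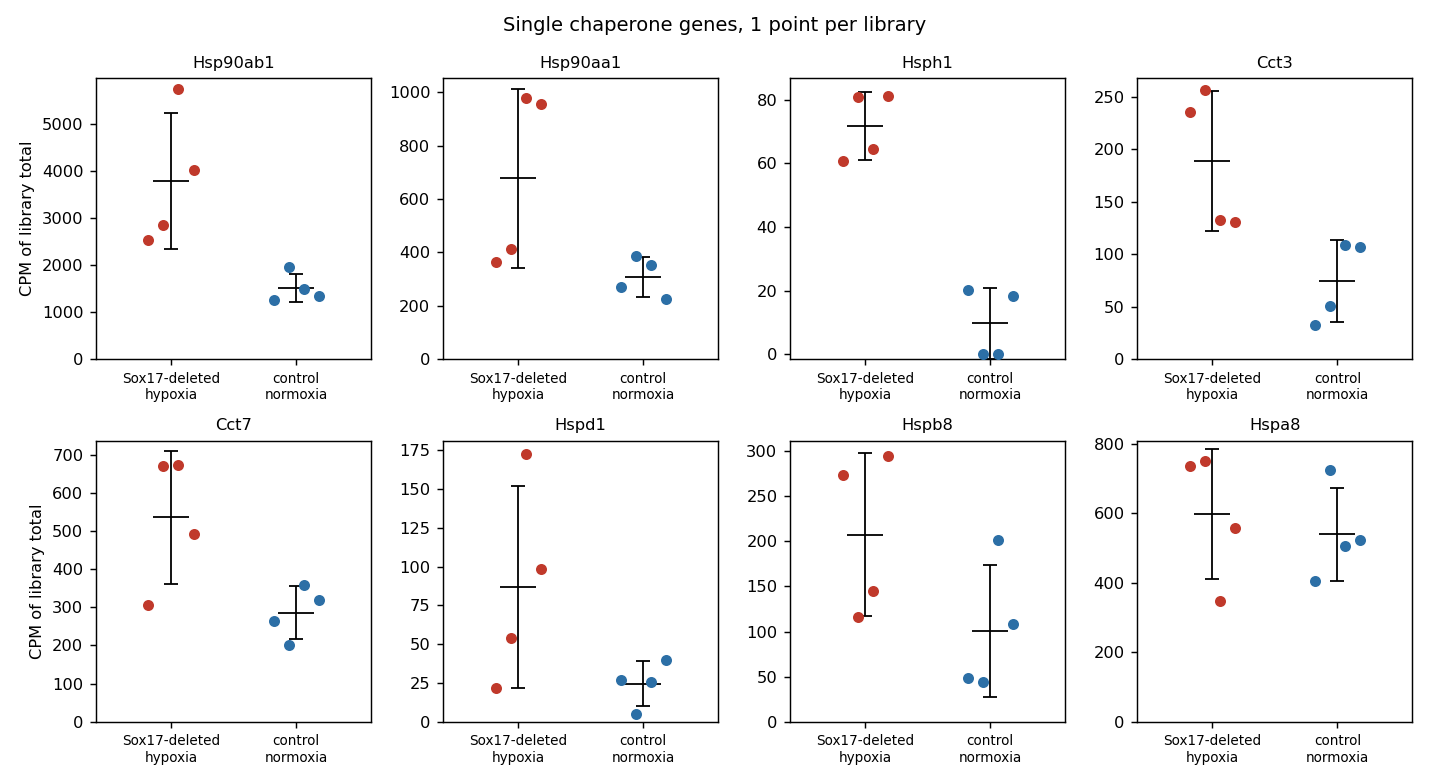
CPM of the library total for 8 chaperone genes in each library (points) with the group mean ± SD (bars), hypoxic libraries left of control libraries, each gene on its own linear axis. Hsp90ab1, Hsph1 and Cct3 have every hypoxic library above every control library, and Hspa8 overlaps.

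Among the HSP70 genes, Hspa8, the constitutive cytosolic HSP70 that also uncoats clathrin vesicles, was the most abundant. It had 736, 750.1, 349 and 559 CPM in hypoxic libraries, against 407, 726, 506 and 522 CPM in control libraries. The groups overlapped fully, with a log2 fold change of 0.15 (95% interval -0.50 to 0.80). The estimate for Hsp90ab1, 1.37, lies above this interval, but the Hsp90ab1 interval, 0.69 to 2.05, overlaps it, so equal changes are not excluded. Hspa8 has 8 genes with a matching 3′ end, 7 of them pseudogenes, so its level is uncertain.

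Hspa1a and Hspa1b, the neighbouring HSP70 genes that respond most strongly to acute heat or proteotoxic stress, were low, and each was at 0 in several libraries. Hspa1a had 5.73, 23.4, 17.3 and 0 CPM in hypoxic libraries, against 0, 0.0904, 0 and 2.27 CPM in control libraries. These are 74, 221, 121 and 0 counts in hypoxic libraries, against 0, 1, 0 and 27 counts in control libraries. Hypoxic library 4, at 0, kept the groups from standing apart, and the log2 fold change of 4.31 carried an SE of 2.60. Hspa1b had 0.155, 21.4, 0 and 0 CPM in hypoxic libraries, against 0, 7.14, 0 and 0 CPM in control libraries, and did not pass the filter for testing. A level of 3 counts, the smallest set apart from 0 here, is between 0.232 and 0.429 CPM, depending on the library.

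Hsph1 (chr5:149614287-149636376, minus strand) encodes HSP110, an exchange factor that resets HSP70 and helps to dissolve aggregates. It had 60.7, 80.8, 64.6 and 81.2 CPM in hypoxic libraries, against 20.3, 0.181, 0.0859 and 18.3 CPM in control libraries. The hypoxic values lay close together and all above the control values, of which 2 came from 2 counts and 1 count. The log2 fold change came to 2.88 (SE 1.63, 95% interval -0.30 to 6.07, edgeR adjusted p 1.00). Hsph1 is the member whose window holds the 3-unit element inside the transcript, printed above.

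Hspa4, a second HSP110-type exchange factor, did not share that pattern. It had 194, 330.3, 80.1 and 349 CPM in hypoxic libraries, against 340.2, 257, 381 and 235 CPM in control libraries (log2 fold change -0.37, SE 0.44). Hspa14, an atypical HSP70 that works at the ribosome, had 57.8, 164, 102 and 153 CPM in hypoxic libraries, against 104, 61.4, 65.3 and 67.8 CPM in control libraries (0.67, SE 0.62). The HSP70 of mitochondria, Hspa9 or mortalin, had 119.6, 192, 90.7 and 28.0 CPM in hypoxic libraries, against 59.1, 24.8, 179 and 46.5 CPM in control libraries (0.51, SE 0.79). All 3 genes overlapped between the groups.

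Hspa12b is a distant HSP70 relative enriched in endothelial cells. It had 115, 3.81, 83.3 and 0 CPM in hypoxic libraries, against 35.5, 96.4, 66.5 and 71.9 CPM in control libraries. The hypoxic libraries split into 2 at the control level or above and 2 near 0, with a log2 fold change of -0.34 (SE 1.44). Of the 13 HSP70 and HSP110 members, 11 had counts and 10 were tested, 6 with a positive and 4 with a negative log2 fold change.

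Of the small heat shock proteins, Hspb1 (HSP27 in human, a regulator of actin as well as a chaperone) was by far the most abundant. It had 1284, 530.1, 706 and 411 CPM in hypoxic libraries, against 525, 842, 674 and 749.7 CPM in control libraries, with a log2 fold change of 0.10 (95% interval -0.64 to 0.85). Hypoxic library 1 was the highest and hypoxic library 4 the lowest of all 8. A pseudogene matches the 3′ end of Hspb1. Hspb8, which works with the HSP70 partner Bag3 in selective autophagy, had 274, 116, 145 and 295 CPM in hypoxic libraries, against 48.1, 44.2, 202 and 108 CPM in control libraries. All hypoxic values were above 3 of the 4 control values, and control library 3 lay inside the hypoxic range. The log2 fold change came to 1.08 (SE 0.58, edgeR adjusted p 1.00). Without Hspb1 the log2 ratio of the family's sum was 0.92, against 0.23 with it. The other members were low: Hspb6, Hspb7 and Hspb11 (the last an intraflagellar transport protein by function) had at most 32.4 CPM in any library, and Hspb2, Hspb3 and Hspb9 had no counts.

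The mitochondrial chaperonin genes Hspd1 (HSP60, chr1:55077835-55088243, minus strand) and Hspe1 (HSP10) lie head to head. The window of 1 Hspd1 start shares 285 bases with the Hspe1 promoter printed above. Hspd1 had 21.9, 54.1, 172 and 98.2 CPM in hypoxic libraries, against 26.8, 5.24, 25.7 and 40.1 CPM in control libraries. Hypoxic libraries 2 to 4 lay above every control library and hypoxic library 1 lay below 3 of them (log2 fold change 1.90, SE 1.05, edgeR adjusted p 1.00). Hspe1, named here after its values were seen because it is the partner of Hspd1, had 46.7, 1.06, 0 and 72.3 CPM in hypoxic libraries, against 24.9, 14.3, 29.7 and 25.9 CPM in control libraries (0.33, SE 1.88). Hypoxic library 3 had the most Hspd1 of all libraries and no count of Hspe1. The family's summed ratio thus rests on Hspd1, with a log2 ratio of 1.28 for both genes and 0.34 without Hspd1. Hspd1 has 2 pseudogenes and Hspe1 3 pseudogenes with a matching 3′ end, so how reads were shared among them is uncertain.

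CCT is a double ring of 8 different subunits, of which Tcp1 is the first and Cct2 to Cct8 the rest, with Cct6a as the widely expressed sixth. Tcp1 does not match the pattern of names and is not a member, but is given here to complete the ring. Of the 9 CCT members, 7 had counts and were tested, 6 with a positive log2 fold change and a median of 0.40, beside a median of -0.01 over all 8282 genes. Cct6b, a testis form, and Cct8l1 had no counts.

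Cct7 was the most abundant subunit gene, with 306, 671, 672 and 493 CPM in hypoxic libraries, against 265, 201, 359 and 319.7 CPM in control libraries. Hypoxic libraries 2 to 4 exceeded every control library (log2 fold change 0.94, SE 0.36, edgeR adjusted p 0.693). Cct3 (chr3:88297116-88321767, plus strand) had 235, 256, 133 and 130.4 CPM in hypoxic libraries, against 32.6, 50.3, 109 and 107 CPM in control libraries. Its groups did not overlap, but hypoxic libraries 3 and 4 lay just above control libraries 3 and 4 (1.36, SE 0.56, edgeR adjusted p 0.825). Tcp1 had 231, 122, 181 and 179 CPM in hypoxic libraries, against 71.5, 92.1, 107 and 98.9 CPM in control libraries, again without overlap (0.98, SE 0.48, edgeR adjusted p 1.00). Cct8 had 136, 379, 206 and 298 CPM in hypoxic libraries, against 100.3, 220.4, 192 and 180.1 CPM in control libraries (0.56, SE 0.43).

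**Figure D3:**
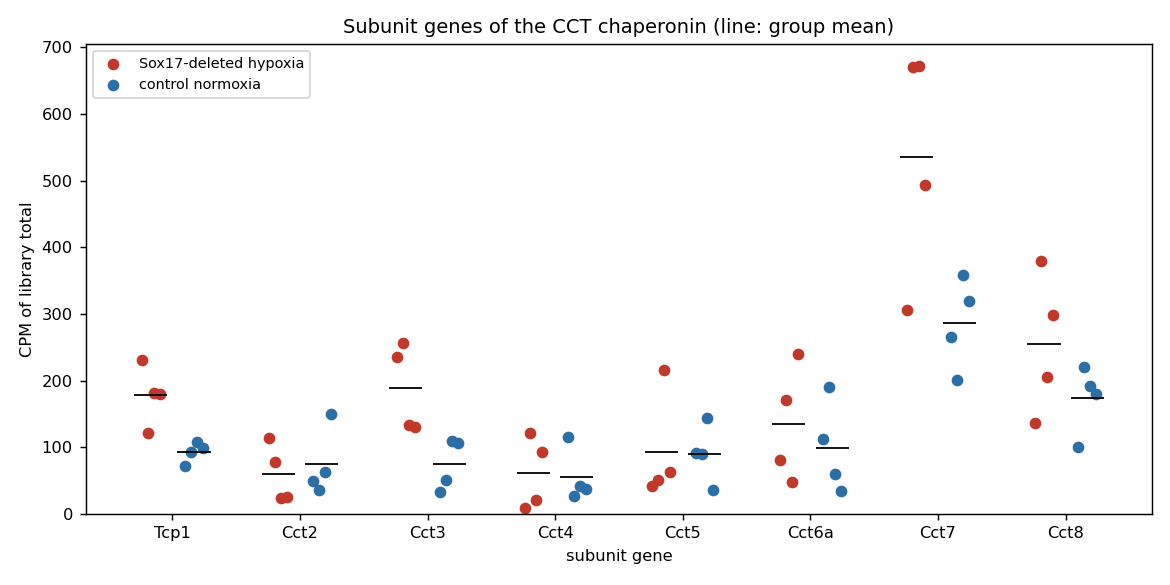
CPM of the library total for each CCT subunit gene in each library (points) with the group mean (line), hypoxic libraries left of control libraries. Tcp1 and Cct3 do not overlap between the groups, Cct7 overlaps in 1 hypoxic library, and Cct2, Cct4, Cct5 and Cct6a are mixed.

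The other subunits showed no separation. Cct6a had 80.8, 171, 47.9 and 240.1 CPM in hypoxic libraries, against 113, 191, 59.5 and 34.8 CPM in control libraries. Cct5 had 41.2, 50.9, 216 and 63.2 CPM in hypoxic libraries, against 91.5, 89.2, 143 and 35.7 CPM in control libraries. Cct4 had 8.91, 121, 20.7 and 92.3 CPM in hypoxic libraries, against 116, 26.8, 42.0 and 36.7 CPM in control libraries. Cct2 had 113, 77.8, 23.6 and 25.9 CPM in hypoxic libraries, against 48.6, 35.5, 62.5 and 150.4 CPM in control libraries. Their log2 fold changes lay between -0.29 for Cct2 and 0.40 for Cct6a, each smaller than its SE. The subunits join the ring in equal numbers, while the 3′ tag levels of the genes, which do not scale with length, averaged from 60.1 CPM (Cct2) to 535 CPM (Cct7) in hypoxic libraries and from 55.3 CPM (Cct4) to 286 CPM (Cct7) in control libraries. The ends of Cct8 and Usp16 overlap on opposite strands, and without the strand setting of the counting such reads cannot be told apart. Cct7 and Pradc1 also overlap on opposite strands, but no gene matched the 3′ end of Cct7.

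The DNAJA genes, class A J proteins, were level between the groups: the log2 ratio of their sum was -0.02, and 0.00 with library sizes scaled by trimmed mean of M values (TMM), where its sign turned. Dnaja2 had 280.3, 171, 197 and 251 CPM in hypoxic libraries, against 262, 120.0, 414 and 187 CPM in control libraries. Dnaja1, its close relative in the cytosol, had 107, 149, 115 and 281 CPM in hypoxic libraries, against 258, 136, 265 and 215 CPM in control libraries (log2 fold change -0.42, SE 0.45). Dnaja1 has 5 genes with a matching 3′ end, 4 of them pseudogenes, so its level is uncertain. Dnaja3, the J protein of mitochondria, had 7.98, 138, 144 and 26.6 CPM in hypoxic libraries, against 53.3, 32.1, 5.15 and 18.01 CPM in control libraries (1.56, SE 1.18). Hypoxic libraries 2 and 3 were above all others for Dnaja3, and hypoxic library 1 was near the lowest. Dnaja4 was detected in 3 hypoxic and 2 control libraries, at up to 60.4 CPM.

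Of the 13 DNAJB members, 9 had counts and were tested, 5 with a positive log2 fold change. Dnajb1, the heat-inducible HSP40, had 71.2, 142, 183 and 9.32 CPM in hypoxic libraries, against 51.9, 51.8, 70.5 and 116 CPM in control libraries (0.54, SE 0.83). Dnajb2, known best from neurons, had 8.29, 17.1, 292 and 40.2 CPM in hypoxic libraries, against 70.5, 23.1, 20.4 and 59.5 CPM in control libraries, and its higher hypoxic mean comes from hypoxic library 3 alone: without it the log2 fold change was -1.04 in place of 1.16. Dnajb6, which holds back aggregation and whose window carries a 3-unit element, had 85.9, 53.8, 134 and 74.1 CPM in hypoxic libraries, against 115, 103, 100.1 and 119 CPM in control libraries (-0.28, SE 0.60). Of the 4 members with a 3-unit element, Hsph1 was the 1 whose groups did not overlap, and Dnajb6 was the 1 with a negative fold change. The last 300 bases of Dnajb6 match 7 pseudogenes.

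The DNAJC genes, a mixed class that shares the J domain and little else, held both members that stood lower in hypoxic libraries without overlap. Among tested members, 1 of 55 stood lower without overlap, beside 4.96% of all genes tested. Of 28 members, 24 had counts and 17 were tested, 7 with a positive and 10 with a negative log2 fold change. Dnajc4 (chr19:6987911-6992572, minus strand) had 0.0774, 0, 4.43 and 0 CPM in hypoxic libraries, against 15.1, 24.1, 32.6 and 42.4 CPM in control libraries. These are 1, 0, 31 and 0 counts in hypoxic libraries, against 160, 267, 380 and 504 counts in control libraries. The groups stood apart (log2 fold change -4.50, SE 2.52, edgeR adjusted p 1.00). Dnajc12 (chr10:63382443-63410576, plus strand), a partner of the aromatic amino acid hydroxylases, had 0, 0, 0.143 and 0 CPM in hypoxic libraries, against 0.189, 18.5, 15.7 and 39.9 CPM in control libraries, and did not pass the filter. The lowest control value is 2 counts and the highest hypoxic value 1 count, so the groups hardly part in control library 1.

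Low counts near 0 were more frequent in the hypoxic libraries for chaperones and for genes at large. Where a member averaged at least 20 CPM in the other 7 libraries, it had 0 or 1 count in 19 of 174 cases (10.9%) in hypoxic libraries and in 7 of 177 cases (3.95%) in control libraries. For all genes the shares were 15.2% in hypoxic libraries and 4.63% in control libraries. The part of this in the low values of Dnajc4 and Dnajc12 was not tested.

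The abundant DNAJC genes overlapped between the groups. Dnajc8, a J protein of the spliceosome, had 346, 722, 151 and 325 CPM in hypoxic libraries, against 339, 572, 382 and 351 CPM in control libraries. A pseudogene matches the 3′ end of Dnajc8. Dnajc7, which binds both HSP70 and HSP90, had 196, 225, 123 and 134 CPM in hypoxic libraries, against 302, 214, 154 and 202 CPM in control libraries (log2 fold change -0.37, SE 0.42). Dnajc5, the cysteine string protein of secretory vesicles, had 121, 109, 228 and 32.6 CPM in hypoxic libraries, against 91.0, 94.4, 79.5 and 154 CPM in control libraries. Dnajc21, which acts in ribosome assembly, had 4.88, 115, 22.4 and 0.0896 CPM in hypoxic libraries, against 79.5, 176, 69.4 and 59.7 CPM in control libraries (-1.48, SE 1.32). Hypoxic library 2 alone kept Dnajc21 within the control range.

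Of the J proteins of the endoplasmic reticulum, Dnajc3, Dnajc1, Dnajc10, Dnajb9, Dnajb11 and Dnajc25 were summed. They came to 529 ± 69.1 CPM in hypoxic libraries and 475 ± 210 CPM in control libraries (SD, n = 4 each). Dnajc3, an inhibitor of the eIF2 kinases that also acts in the lumen, had 175, 206, 83.1 and 263 CPM in hypoxic libraries, against 312, 117, 319 and 189 CPM in control libraries. Dnajc1 had 245, 237, 34.1 and 104 CPM in hypoxic libraries, against 34.2, 25.0, 237 and 94.0 CPM in control libraries. Dnajc10, a disulfide reductase, had 82.9, 96.0, 125 and 64.0 CPM in hypoxic libraries, against 44.5, 20.96, 168 and 113 CPM in control libraries. All 3 overlapped. The ends of Dnajc1 and Mllt10, and of Dnajc7 and Cnp, overlap on opposite strands.

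**Figure D4:**
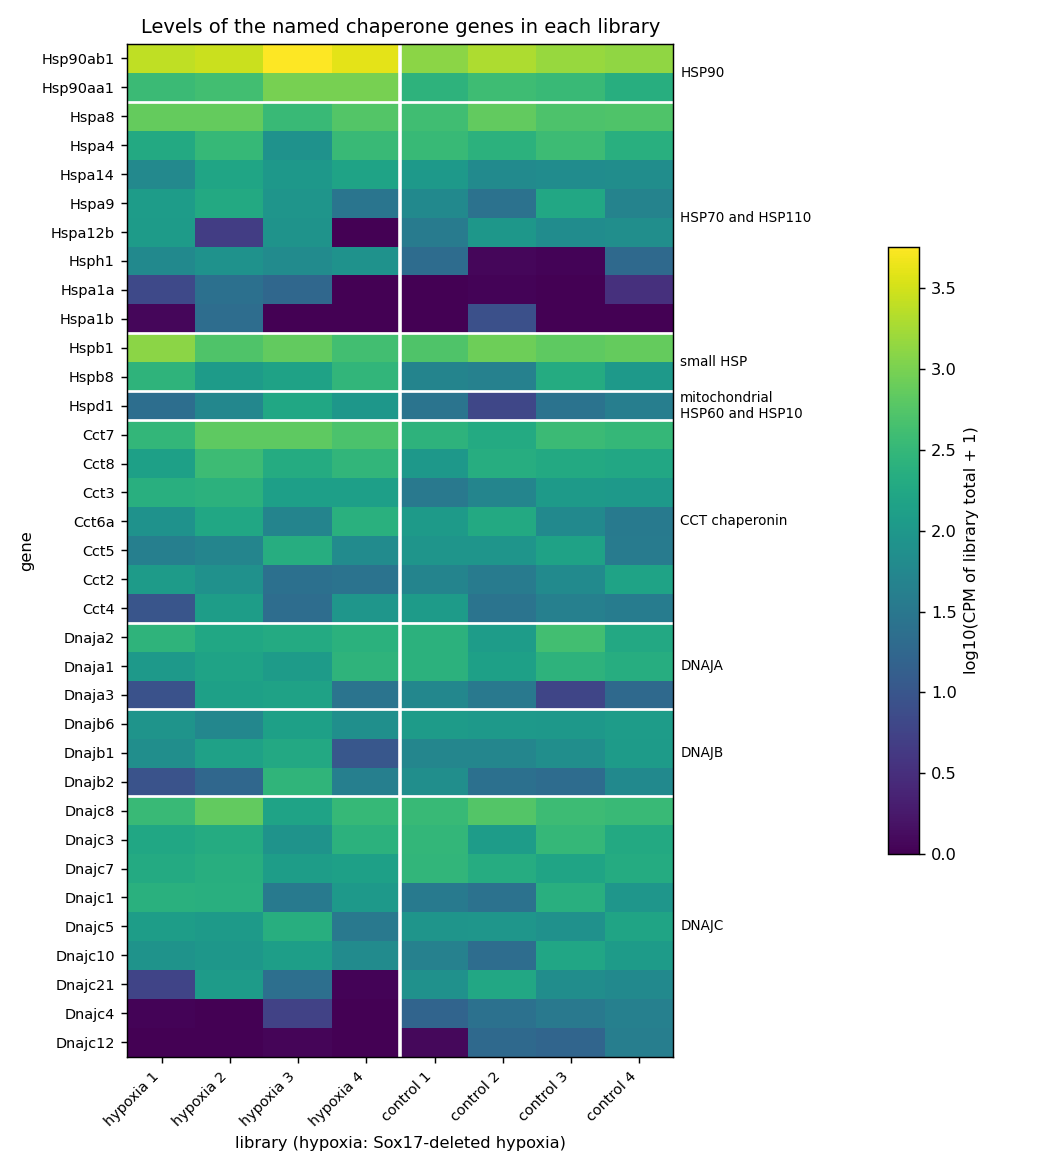
Level of each of the 35 named chaperone genes (rows, by family) in each library (columns, hypoxic left of control), as log10 of CPM plus 1. Hsp90ab1 is the brightest row in every library, and the darkest cells of Dnajc4 and Dnajc12 stand in the hypoxic columns.

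Across the set, 55 of the 79 members passed the filter on low counts, 9 had counts but did not pass, and 15 had no count in any library. edgeR's quasi-likelihood test called 0 members and 0 of 8282 genes (0.0%) at an adjusted p under 0.05. At an unadjusted p under 0.05 it had 4 members, all higher in hypoxic libraries (Hsp90ab1, Hsp90aa1, Cct7 and Cct3), where 171 genes (2.06%) were higher among all tested and 424 (5.12%) had such a p in either direction. DESeq2, limma-voom and edgeR without the filter each called 1 member, Hsp90ab1. The groups did not overlap for 5 members: Hsp90ab1, Hsph1 and Cct3 were higher in hypoxic libraries, and Dnajc4 and Dnajc12 lower. Dnajc12 did not pass the filter, so 4 of the 55 tested members (7.27%) stand beside 6.59% of all genes tested, 1.63% higher and 4.96% lower. With fewer libraries, more genes of any kind lie apart. The members without overlap were 10 without hypoxic library 1, 9 of them tested (16.4%, beside 14.0% of all genes). They were 8 without hypoxic library 2, 7 of them tested (12.7%, beside 11.5%), and 8 without control library 3, 7 of them tested (12.7%, beside 8.37%). Among the 30 members averaging 50 CPM or more, the groups stood apart for 2, both higher, and for none lower, beside 2.86% and 3.78% of 3705 such genes.

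Of the 55 members tested, 33 (60%) had a positive log2 fold change with a median of 0.15, beside 4110 of 8282 genes (49.6%) and a median of -0.01. Under limma-voom 22 of the 55 were positive and the median was -0.30, where the median of all genes was itself -0.71. The 29 members with counts outside the naming rule, Hspe1 among them, had means of 0.0194 to 49.7 CPM, and 22 of them were tested, 11 with a positive and 11 with a negative log2 fold change, from -4.90 to 1.94.

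**Figure D5:**
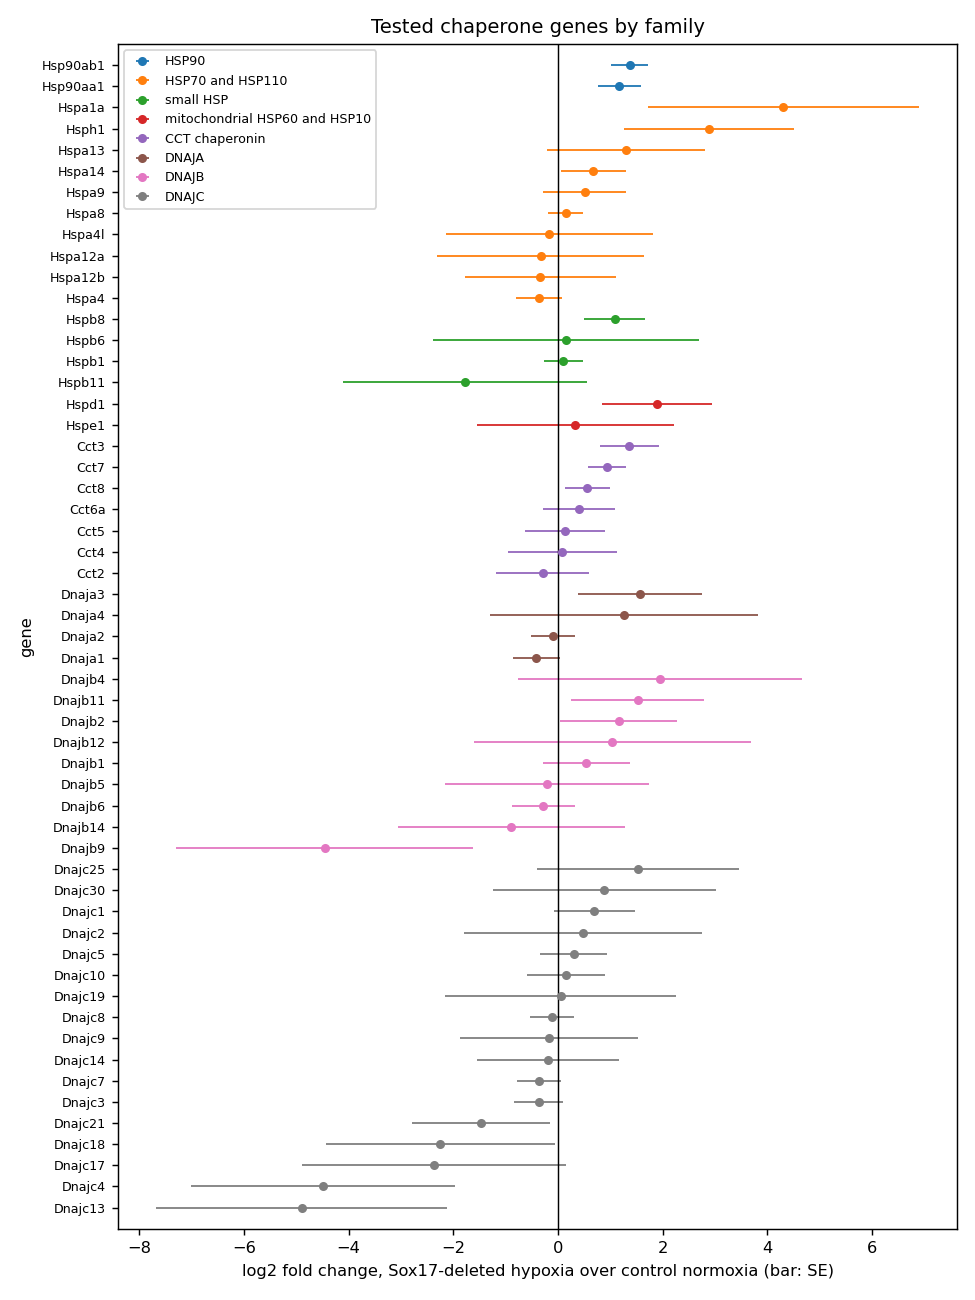
Log2 fold change, hypoxic over control, of each of the 55 tested chaperone genes from edgeR (point) with its standard error (bar), by family. The HSP90 and CCT points lie mostly right of 0 with short bars, and the longest bars belong to genes with few counts.

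The partner genes of the chaperones were read from 6 lists with 70 genes in the tables, of which 59 were tested, 29 with a positive log2 fold change and a median of -0.002. edgeR called 0 of them, with 1 (Bag4) at an unadjusted p under 0.05, and DESeq2 called 1 and limma-voom 0. Among the 16 tested HSP90 co-chaperones 8 were positive (median 0.04), beside log2 fold changes of 1.37 and 1.18 for the HSP90 genes themselves. Cdc37, which brings kinases to HSP90, had 71.8, 284, 83.1 and 152 CPM in hypoxic libraries, against 177, 127, 178 and 252 CPM in control libraries. Fkbp4, an immunophilin of steroid receptor complexes, averaged 199 ± 60.6 CPM in hypoxic libraries and 150 ± 57.5 CPM in control libraries. Ppp5c, a phosphatase bound to HSP90, had 78.5, 34.1, 23.0 and 37.9 CPM in hypoxic libraries, against 115, 147, 107 and 87.8 CPM in control libraries. All hypoxic values of Ppp5c were below the control values (log2 fold change -1.39, SE 0.73, edgeR adjusted p 1.00).

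Of the 11 tested exchange and partner factors of HSP70, 5 were positive (median -0.56). Bag1, a nucleotide exchange factor, had 5.19, 4.23, 58.1 and 43.3 CPM in hypoxic libraries, against 64.4, 71.7, 91.8 and 75.3 CPM in control libraries, without overlap. Bag4 was at 0.232, 0, 0 and 0 CPM in hypoxic libraries, against 6.34, 24.03, 24.9 and 13.1 CPM in control libraries (edgeR adjusted p 0.47). Stub1, the ubiquitin ligase CHIP that acts on chaperone clients, averaged 275 ± 161 CPM in hypoxic libraries and 247 ± 82.3 CPM in control libraries. The 13 tested prefoldin and CCT partners had 7 positive members (median 0.08), and the 11 tested mitochondrial partners 5 (median -0.04), among which Clpb, a mitochondrial disaggregase, was below control in every hypoxic library (2.47 ± 2.99 CPM in hypoxic, 35.5 ± 25.9 CPM in control). Of the heat shock factors and regulators 7 were tested, 3 of them positive. Hsf1, the main heat shock factor, had 0, 19.3, 0.571 and 29.8 CPM in hypoxic libraries, against 31.6, 33.3, 19.9 and 1.94 CPM in control libraries. Cryab, the crystallin among the small heat shock proteins, averaged 66.7 ± 68.0 CPM in hypoxic libraries and 52.5 ± 27.0 CPM in control libraries.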

How the data were processed

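The deposited files, 8 tables with a library each, hold raw integer counts for every gene symbol. Per the labels' protocols, HA-tagged ribosomes were immunoprecipitated from lung and libraries were made with a QuantSeq 3′ kit. Bowtie2 and bedtools were used with the build mm10, per the submitters' processing notes. Strand, duplicates and reads with several matches are not given in the sources used here, and can change counts of genes with copies or overlaps. Because a transcript yields about 1 tag at its 3′ end, no length scaling was applied. After 44 duplicate rows were summed, 23238 symbols remained, 14071 with a count.

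Levels are CPM of the library total. Tests used R 4.3.3 and edgeR 4.0.16 (TMM factors, filterByExpr, quasi-likelihood F test, group alone), with Benjamini-Hochberg adjustment over 8282 genes, a call at an adjusted p under 0.05, and SE as the log2 fold change over the square root of F, from which 95% intervals were taken. DESeq2 1.42.0, limma-voom 3.58.1, other scalings and filters, a replicate block and leaving out each library were alternatives. The steps were tested on simulated data. Matching 3′ ends were sought with BLAST 2.17.0 in GENCODE M21.

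Named with every value are members with a mean of at least 50 CPM, members with 8 CPM in a group and no overlap, and Hspa1a and Hspa1b; from the partner lists, at most 4 per list by the same rule. Single values of 2 genes of these and the marker lists are not reported here. The members and lists were chosen with earlier results of these data known. Nothing says that the libraries came from separate animals, and 3 hypoxic libraries share a number in their names, so p-values reflect only how these libraries vary, and that variation may be technical. No libraries were alike within sampling noise (chi-square per degree of freedom at least 187.7 between any pair).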

Additional observations from a re-analysis of the deposited data

Results flagged for a closer look

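In 86 groups of 4 libraries (each named gene and each family sum in each group), 13 had a library far from the other 3, by a gap above Dixon's 95% critical value for 4 values. For normally distributed values, chance alone flags about 1 in 20 groups. The 13 flagged of 86 are above that share, but some of them are mostly at 0, where it does not apply. Whether the number flagged is an excess was not tested. Hypoxic library 3 stood above the others for Cct5 (216 CPM, others 41.2 to 63.2), Dnajb2 (292 CPM, others 8.29 to 40.2), Dnajc4 (4.43 CPM, others 0 to 0.0774) and Dnajc12 (0.143 CPM, others 0). Hypoxic library 2 stood above for Hspa1b (21.4 CPM, others 0 to 0.155).

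Control library 1 stood above the others for Cct4 (116 CPM, others 26.8 to 42.0) and Hspa14 (104 CPM, others 61.4 to 67.8). It stood below for the sums of the small heat shock proteins (581 CPM, others 882 to 915) and of DNAJC (1446 CPM, others 1572 to 1596). Control library 2 stood above for Dnajc21 (176 CPM, others 59.7 to 79.5) and Hspa1b (7.14 CPM, others 0). Control library 4 stood above for Hspa1a (2.27 CPM, others 0 to 0.0904) and the DNAJB sum (477 CPM, others 298 to 321). The Dnajc12 and Hspa1a values rest on 1 and 27 counts.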

How the results depend on the processing

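Each result was computed under up to 17 alternatives, and 689 of 744 values stayed close to the main one. For a named gene that means the same direction and side of the threshold. For a count it means a limited change, and for a family sum a move below the spread between libraries, whatever its sign. With a library left out, the log2 ratio of the sum spanned -0.217 to 0.16 for DNAJA and -0.203 to 0.474 for DNAJB. It spanned -0.117 to 0.376 for small heat shock proteins and -0.003 to 0.342 for HSP70 and HSP110. The sums of the other families kept their sign there. Members called higher were 1, Hsp90ab1, without the filter on low counts, with DESeq2 and with limma-voom, and 0 otherwise; no member was called lower. All genes called were 17 without the filter, 4 among genes of at least 100 CPM, 1 with robust estimation, 155 with DESeq2 and 44 with limma-voom, and 0 to 5 with a library left out (5 without hypoxic library 1). DESeq2 called 1 partner gene. Positive members numbered 11 of those of at least 100 CPM, and 30 to 35 with a library left out. The median log2 fold change of members was -0.30 with limma-voom and -0.25 with a replicate block, beside -0.71 and -0.57 for all genes, and 0.10 to 0.31 with a library left out; the cause was not tested. Members without overlap numbered 5 to 10 with a library left out, of which 4 to 9 were among the 55 tested (7.27% to 16.4%), beside 8.37% to 14.0% of all genes. Without the most abundant member, the log2 ratio was 0.92 for small heat shock proteins and 0.34 for HSP60 and HSP10. Of 33 named members tested, 12 changed sign under some alternative. With limma-voom these were Cct4 (-0.30), Cct5 (-0.38), Dnaja2 (0.02), Dnajb1 (-0.41), Dnajb2 (-0.52), Dnajc5 (-0.20) and Hspb1 (-0.02), and with the replicate block Cct4 (-0.10), Cct5 (-0.12), Dnaja2 (0.013), Dnajb2 (-0.33) and Hspb1 (-0.037). With a library left out, the log2 fold changes spanned -0.82 to 0.31 for Cct2, -0.43 to 0.76 for Cct4, -0.83 to 0.44 for Cct5, -0.011 to 0.94 for Cct6a, -0.32 to 0.24 for Dnaja2, -0.003 to 0.93 for Dnajb1, -1.04 to 1.62 for Dnajb2, -0.17 to 0.66 for Dnajc10, -0.28 to 0.62 for Dnajc5, -0.55 to 0.13 for Dnajc8, -0.98 to 0.084 for Hspa12b and -0.27 to 0.32 for Hspb1. Same-numbered libraries share only a number (correlations of their deviations -0.02 to 0.02), and edgeR called 0 genes with the block as without it. Levels under about 1 CPM rest on few counts, and the floor of 3 counts covers counting error only.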
